A study of Mus musculus with 8 samples.

Results

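Enzymes and chaperones of the endoplasmic reticulum hydroxylate prolines and lysines of collagen and assist its folding, which serves its export, helix stability and cross-links. The 8 genes described here encode the core of that machinery. They were taken by symbol, as P4ha1, P4ha2, Plod1, Plod2, Plod3, Serpinh1, Crtap and Ppib, and each was present once in both deposited tables, among 13056 genes in the table of sorted cells and 14319 genes in the table of overexpressing cells. None of the 8 lay below 1 FPKM in any column. FPKM is the number of fragments normalized for transcript length and sequencing depth.

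Prolyl 4-hydroxylase is a tetramer of catalytic alpha subunits (P4HA1 or P4HA2) and protein disulphide isomerase (P4HB), and the 4-hydroxyproline it makes stabilizes the collagen triple helix at body temperature. The lysyl hydroxylases PLOD1, PLOD2 and PLOD3 make the hydroxylysine that carries sugars and cross-links, and all of these enzymes need iron, oxygen, 2-oxoglutarate and ascorbate. CRTAP and cyclophilin B (PPIB) form a complex with prolyl 3-hydroxylase 1, while HSP47 (SERPINH1) is a chaperone dedicated to the folded procollagen helix. Cells that lay down basement membranes, such as the parietal endoderm of the rodent embryo, are known for making large amounts of type IV collagen.

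The data came from 2 experiments on mouse embryonic stem cells (mESCs; C57BL/6(F) x 129/sv(M), labelled 3.5 days), with 8 samples in 4 conditions. For the first, samples of 500 cells, KLF3-GFP-positive or KLF3-GFP-negative, were sorted from a picked DsRed-positive line in which the CAGGS promoter drove the N-terminal part of KLF3, without its DNA-binding domain, fused to GFP, and libraries were made by Smart-seq2. Both sorted groups carried this construct and were grown in serum with leukaemia inhibitory factor. For the second, codon-optimized Klf3 (KLF3-OE) or GFP (GFP-OE) was induced with doxycycline for 72 hours in picked clones of the R26 line, which carries the M2rtTA transactivator at Rosa26 and received either insert at the Col1a1 locus, and libraries were made from poly(A) RNA. Insertion clones had been selected on feeder cells. Each deposited column is the authors' mean of 2 replicates, so the spread between replicates and the depth are unknown, no SD, interval or test stands beside any difference, and levels were not compared between the experiments.

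Differences are given as log2(FPKM + 1) of the KLF3 column minus that of its control, a scale that understates changes of low values. A gene was tested where its 2 columns averaged 1 FPKM or more, and it was called up above 1 on this scale (2-fold) and called down below -1. The words rose and fell stand for these calls, which carry no test. The median difference of all genes tested was 0.03 in sorted cells and -0.18 on overexpression. Ribosomal protein genes took 30.6% of the summed FPKM of KLF3-GFP-negative cells and 26.3% of that of KLF3-GFP-positive cells, and 28.9% in GFP-OE and 38.9% in KLF3-OE cells. Klf3 itself was at 107 FPKM in KLF3-GFP-negative cells against 122 FPKM in KLF3-GFP-positive cells, where the reporter holds part of its sequence, and at 58.7 and 47.8 FPKM in GFP-OE and KLF3-OE cells, where the codon-optimized insert need not align to it. The Y-linked genes Ddx3y and Uty were at 0.1 FPKM, the floor of the tables, in KLF3-OE cells only (3.34 and 3.56 FPKM in GFP-OE cells), and Eif2s3y, also Y-linked, was at 30.9 FPKM in GFP-OE and 1.67 FPKM in KLF3-OE cells. The part of this difference between the columns in the results was not tested. The pluripotency gene Pou5f1 was present in all columns, from 59.4 FPKM in KLF3-GFP-positive to 990 FPKM in KLF3-OE cells.

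All 8 genes were higher in KLF3-GFP-positive than in KLF3-GFP-negative cells by more than 2-fold, from 1.07 for Plod1 to 4.56 for P4ha2 on the log2 scale, with a median of 2.75. Over all 9212 genes tested in sorted cells, 13.8% were called up and 8.32% were called down. Summed over the 8 genes, the level was 405 FPKM in KLF3-GFP-negative cells against 1802 FPKM in KLF3-GFP-positive cells. On overexpression, 3 of the 8 genes were called up (Serpinh1, P4ha2 and Ppib) and none was called down, against 6.6% called up and 10.1% called down over all 11179 genes tested. The median of the 8 genes was 0.96, and Crtap (0.97) and P4ha1 (0.95) lay just under the limit, as Ppib (1.05) and P4ha2 (1.10) lay just over it. In a bulk sample, more cells of one kind and more RNA per cell cannot be told apart.

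**Figure D1:**
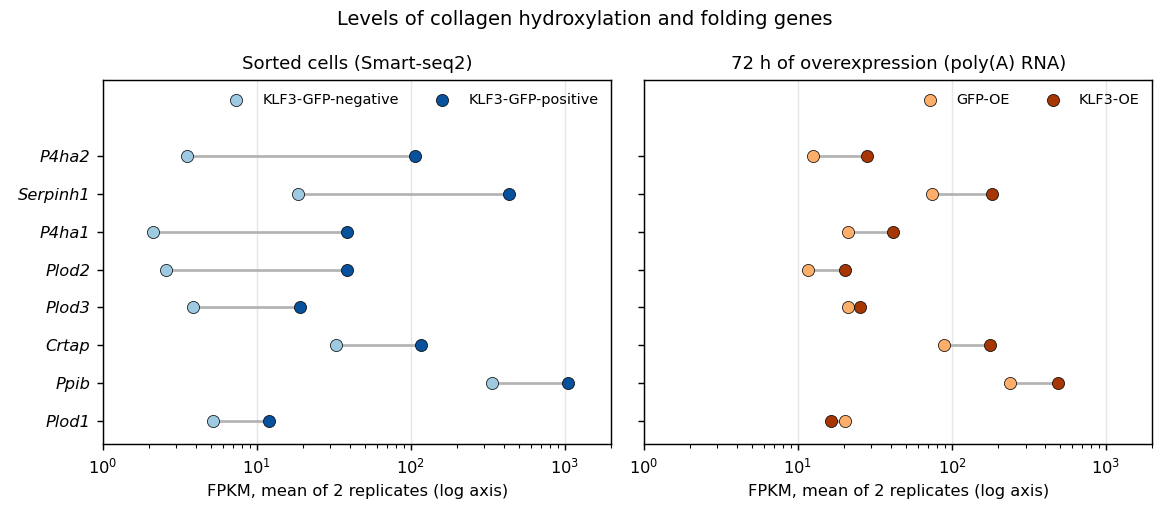
FPKM of the 8 genes (log axis) in the control column (pale) and the KLF3 column (dark) of the sorted cells (left) and of the overexpression experiment (right). Each point is the authors' mean of 2 replicates, without error bars because the spread is unknown. The dark point lies to the right for every gene except Plod1 on overexpression, and the lines are longest for P4ha2, Serpinh1, P4ha1 and Plod2 in sorted cells.

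The promoters of P4ha2, Serpinh1 and P4ha1, which had the largest differences in sorted cells, are shown beside that of Plod1, which had the smallest. RefSeq windows on GRCm38.p6, the assembly of mm10, were found for 7 of the 8 genes, and Plod2 was not among them. Each run holds the 250 bases before the RefSeq start of the gene, 5′ to 3′ on its own strand, with capitals where CACCC or its reverse complement occurs, the box bound by Krüppel-like factors. The windows are chr11:54100674-54100923 (plus strand) for P4ha2, chr7:99353240-99353489 (minus) for Serpinh1, chr10:59323046-59323295 (plus) for P4ha1 and chr4:147936777-147937026 (minus) for Plod1. No annotated exon of GENCODE M21 lay in these 4 windows, while 208 bases of the Plod3 window, which is counted but not shown, are exon of Znhit1. The window of P4ha2 lay inside the gene as the tables delimit it, since RefSeq places the start 829 bases further in.
P4ha2: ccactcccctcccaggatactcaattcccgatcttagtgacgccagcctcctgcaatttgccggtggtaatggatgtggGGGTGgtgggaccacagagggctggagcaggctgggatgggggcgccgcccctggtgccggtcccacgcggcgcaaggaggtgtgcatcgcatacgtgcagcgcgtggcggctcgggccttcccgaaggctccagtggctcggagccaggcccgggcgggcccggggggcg
Serpinh1: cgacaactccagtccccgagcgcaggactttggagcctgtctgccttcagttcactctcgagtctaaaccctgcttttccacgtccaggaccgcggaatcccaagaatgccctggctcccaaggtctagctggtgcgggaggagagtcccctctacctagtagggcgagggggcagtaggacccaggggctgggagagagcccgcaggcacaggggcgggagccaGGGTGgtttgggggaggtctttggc
P4ha1: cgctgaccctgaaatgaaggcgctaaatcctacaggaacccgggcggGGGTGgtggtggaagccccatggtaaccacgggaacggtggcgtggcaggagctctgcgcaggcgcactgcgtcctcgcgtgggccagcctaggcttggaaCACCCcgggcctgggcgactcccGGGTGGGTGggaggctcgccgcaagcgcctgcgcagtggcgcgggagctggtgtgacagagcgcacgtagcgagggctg
Plod1: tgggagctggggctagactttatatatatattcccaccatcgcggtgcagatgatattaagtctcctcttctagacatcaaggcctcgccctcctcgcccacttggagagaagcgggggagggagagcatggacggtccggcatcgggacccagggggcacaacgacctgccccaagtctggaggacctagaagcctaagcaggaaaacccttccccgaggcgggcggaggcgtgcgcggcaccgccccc

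In these windows CACCC occurred 1 time in P4ha2 and in Serpinh1, 4 times in P4ha1 and 0 times in Plod1, on either strand. Of the 4 matches in P4ha1, a pair shares 1 base. Over the 7 windows it occurred in 6, and in 52.0% of all 32851 windows of the same length. ACGTG and GCGTG, forms of the core to which hypoxia-inducible factors bind, occurred in 5 and 6 of the 7 windows, against 16.6% and 28.2% of all windows. P4ha2 held ACGTG from -78 to -74 and GCGTG from -69 to -65, counted from the RefSeq start. The GC box GGGCGG occurred in 5 of the 7 windows (32.7% of all), CCAAT in 2 (33.8%), the GATA sequences AGATAA and TGATAA in 0 (9.99% and 7.94%), and CCAAT followed after 9 bases by CCACG, the endoplasmic reticulum stress element, in 0 (0.11%). The 7 windows held 10 to 25 CpG dinucleotides, against a median of 6 over all windows, and 53.6% to 70.0% G and C against a median of 52.4%. Motifs with a CpG or many G and C move with this composition, and its part was not tested. A match is a run of letters and not a binding site.

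The order of the levels changed between the sorted groups. In KLF3-GFP-negative cells Ppib was far above the others, followed by Crtap and Serpinh1, whereas Plod1 (5.16 FPKM), Plod3 (3.86), P4ha2 (3.53), Plod2 (2.59) and P4ha1 (2.12 FPKM) lay close together. In KLF3-GFP-positive cells Serpinh1 came next after Ppib, and P4ha2 lay just below Crtap, while Plod1 was lowest of the 8. Of all genes listed in the table, 45.6% were higher than P4ha2 in KLF3-GFP-negative cells and 7.80% in KLF3-GFP-positive cells. On overexpression Ppib again stood first, and the exchange of Crtap and Serpinh1 in second place was between close values (175.61 and 181.07 FPKM in KLF3-OE cells). Whether neighbours in these orders differ beyond the replicate spread is unknown.

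The catalytic subunits of prolyl 4-hydroxylase showed the largest rise of the enzymes in sorted cells. P4ha2 (ENSMUSG00000018906, chromosome 11 of mm10 from 54100095 to 54131665, plus strand) stood at 3.53 FPKM in KLF3-GFP-negative cells against 106 FPKM in KLF3-GFP-positive cells, which is 30.0-fold in plain FPKM. P4ha1 (ENSMUSG00000019916, chromosome 10 from 59323296 to 59373304, plus strand) went from 2.12 to 38.7 FPKM, 18.3-fold, with a log2 difference of 3.67. Both genes were thus low in the KLF3-GFP-negative column and high in the KLF3-GFP-positive one, and 0.33% of the genes tested had a larger difference than P4ha2 and 0.77% a larger one than P4ha1. On overexpression P4ha2 went from 12.6 FPKM in GFP-OE to 28.1 FPKM in KLF3-OE cells (2.23-fold) and P4ha1 from 21.1 to 41.6 FPKM (1.97-fold). The third alpha subunit gene, P4ha3, was looked for but had no listed value under that symbol in either experiment. P4ha2 made up 62.5% of the summed alpha subunit FPKM of KLF3-GFP-negative cells and 73.2% of that of KLF3-GFP-positive cells, and 37.3% in GFP-OE and 40.3% in KLF3-OE cells. P4hb, the beta subunit and a general disulphide isomerase, rose from 106 to 650.3 FPKM (2.61) in sorted cells and was at 160 and 261 FPKM on overexpression (0.70). Because the alpha subunits rose more, the ratio of P4hb to the alpha subunits was 18.7 for KLF3-GFP-negative cells but 4.50 for KLF3-GFP-positive cells. On overexpression it was 4.74 in GFP-OE and 3.74 in KLF3-OE cells.

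Among the lysyl hydroxylases, Plod2 stood apart from Plod1 and Plod3. PLOD2 is the form known for hydroxylating the telopeptides, from which cross-links start. Plod2 (ENSMUSG00000032374, chromosome 9 from 92542223 to 92608428, plus strand) stood at 2.59 FPKM in KLF3-GFP-negative cells against 38.4 FPKM in KLF3-GFP-positive cells, 14.8-fold, with a log2 difference of 3.45. Plod3 (ENSMUSG00000004846, chromosome 5 from 136987019 to 136996648, plus strand), whose product also transfers glucose to hydroxylysine and is the form most tied to type IV collagen, went from 3.86 to 19.0 FPKM (4.93-fold, log2 difference 2.04). Plod1 (ENSMUSG00000019055, chromosome 4 from 147909753 to 147936767, minus strand), which hydroxylates lysines of the helix, went from 5.16 to 11.9 FPKM, the smallest change of the 8 genes at 2.31-fold. Plod2 was thus the least abundant of the 3 in KLF3-GFP-negative cells, with 22.3% of their summed FPKM, and the most abundant in KLF3-GFP-positive cells, with 55.3%, while Plod1 went from 44.4% to 17.2%. The ratio of Plod2 to Plod1 was 0.50 and 3.22 in these groups.

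On overexpression none of the lysyl hydroxylases passed the 2-fold limit. Plod2 was at 11.7 FPKM in GFP-OE and 20.2 FPKM in KLF3-OE cells (log2 difference 0.74), Plod3 at 21.2 and 25.5 FPKM (0.25) and Plod1 at 20.2 and 16.5 FPKM (-0.28). Plod1 was the only gene of the 8 with a lower value in the KLF3 column, and 55.4% of all genes tested had a larger difference than Plod1. With the trend of the difference with genomic span removed, Plod2 was at 1.22 and thus called up, and Plod1 was at 0.01. The share of Plod2 among the 3 genes was 22.02% in GFP-OE and 32.5% in KLF3-OE cells, and that of Plod1 was 38.0% and 26.5%. Both of these shares moved in the same direction as in sorted cells, by smaller amounts. The share of Plod3 did not. It was lower in KLF3-GFP-positive (27.5%) than in KLF3-GFP-negative cells (33.2%), but slightly higher in KLF3-OE (40.98%) than in GFP-OE cells (39.98%). Plod3 overlaps Znhit1 on the opposite strand. Smart-seq2 does not mark strand, and Znhit1 was at 77.8 FPKM in KLF3-GFP-negative cells against 81.1 FPKM in KLF3-GFP-positive cells, so its part in the value of Plod3 was not tested.

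**Figure D2:**
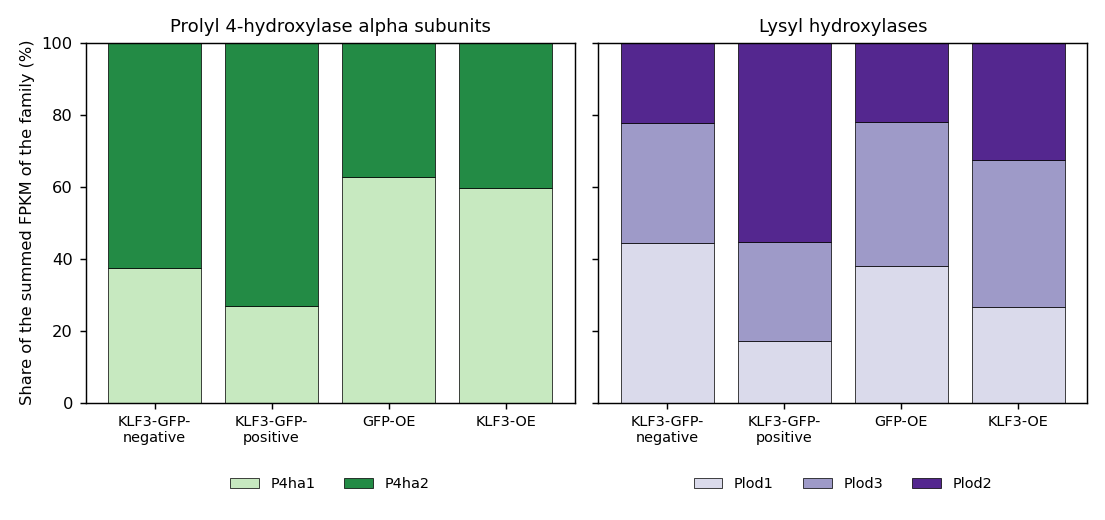
Share (%) of each gene in the summed FPKM of the prolyl 4-hydroxylase alpha subunits P4ha1 and P4ha2 (left) and of the lysyl hydroxylases Plod1, Plod2 and Plod3 (right), in the 4 columns. Bars are computed from the authors' means, with no error. Plod2 takes 22.3% of the bar of KLF3-GFP-negative cells but 55.3% of that of KLF3-GFP-positive cells, and P4ha2 takes 62.5% and 73.2%.

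The collagen chaperone gene showed the second largest change in sorted cells and the largest of the 8 on overexpression. Serpinh1 (ENSMUSG00000070436, chromosome 7 from 99345375 to 99353230, minus strand) encodes HSP47, which binds the folded helix in the endoplasmic reticulum and lets go of it in the Golgi. It stood at 18.4 FPKM in KLF3-GFP-negative cells against 430.4 FPKM in KLF3-GFP-positive cells (23.4-fold, log2 difference 4.47), and at 73.6 FPKM in GFP-OE and 181 FPKM in KLF3-OE cells (2.46-fold, 1.29). Of the genes tested, 0.36% had a larger difference in sorted cells and 2.997% on overexpression. Serpinh1 was the only one of the 8 genes to stay above the 2-fold limit on overexpression under all alternatives tried, with a range from 1.03 to 1.49. Its first place there depended on the processing. Under quantile normalization P4ha2 lay higher (1.24 against 1.03). With the span trend removed, P4ha2 (1.45), P4ha1 (1.41) and Plod2 (1.22) lay above Serpinh1 (1.16).

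The partner genes of prolyl 3-hydroxylase, Crtap and Ppib, were among the 3 most abundant of the 8 genes in every column. Crtap (ENSMUSG00000032431, chromosome 9 from 114375134 to 114390675, minus strand) encodes the cartilage-associated protein, the non-catalytic partner in the complex. Crtap went from 32.7 to 116 FPKM in sorted cells (3.54-fold, log2 difference 1.79) and was at 88.9 FPKM in GFP-OE and 176 FPKM in KLF3-OE cells (1.98-fold). Ppib (ENSMUSG00000032383, chromosome 9 from 66060169 to 66066629, plus strand) encodes the peptidyl-prolyl isomerase that turns the cis proline bonds which slow helix folding. It stood at 336 FPKM in KLF3-GFP-negative cells against 1042 FPKM in KLF3-GFP-positive cells (3.10-fold, 1.63), and went from 236 FPKM in GFP-OE to 489 FPKM in KLF3-OE cells (2.07-fold, 1.05). Ppib was thus the most abundant of the 8 genes in all 4 columns, and the ratio of Ppib to Crtap was 10.3 and 9.02 in the sorted groups and 2.66 and 2.79 on overexpression. P3h1, the catalytic subunit of the complex, was at 10.1 and 39.99 FPKM in sorted cells (1.88) and at 12.1 and 10.3 FPKM on overexpression (-0.22). Crtap and P3h1 thus kept a ratio of 3.23 and 2.89 in sorted cells, whereas on overexpression it was 7.33 in GFP-OE and 17.0 in KLF3-OE cells. Ppib overlaps Snx22 on the opposite strand, which was at 0.33 to 0.56 FPKM in the 4 columns.

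**Figure D3:**
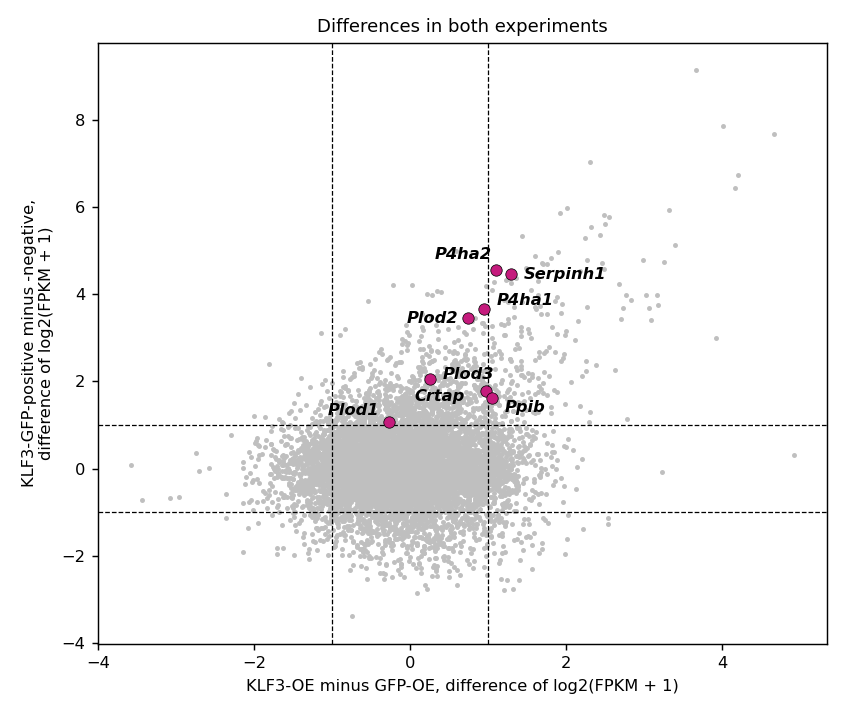
Difference of log2(FPKM + 1) on overexpression (x axis) against that in sorted cells (y axis) for the 8887 genes tested in both experiments (grey) and the 8 genes (magenta). Dashed lines mark the 2-fold limits. All 8 lie above the upper limit of the y axis, and Serpinh1, P4ha2 and Ppib also lie to the right of the limit of the x axis.

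Set side by side, the experiments ordered the 8 genes partly alike. With the columns as deposited, P4ha2 and Serpinh1 held the first places in both, and Plod1 the last. Crtap and Ppib, with 1.79 and 1.63 in sorted cells, had smaller differences there than P4ha1 and Plod2 (3.67 and 3.45). On overexpression, with the columns as deposited, Crtap (0.97) and Ppib (1.05) lay above P4ha1 (0.95) and Plod2 (0.74). This order on overexpression depended on the processing. With the span trend removed, P4ha1 (1.41) and Plod2 (1.22) lay above Crtap (1.09) and Ppib (0.86). Under quantile normalization P4ha1 (1.005) and Plod2 (0.92) also lay above Crtap (0.67) and Ppib (0.55). Under the other alternatives the order stayed as with the deposited columns. Serpinh1, P4ha2 and Ppib were called up in both experiments. Of the 8887 genes tested in both, 227 (2.55%) were. The call of Ppib on overexpression was lost under quantile normalization (0.55), with the columns rescaled without ribosomal protein genes (0.82) and with the span trend removed (0.86), and that of P4ha2 under the rescaling (0.88).

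The members of the set differ in length along the genome, and the differences on overexpression moved with that length. In 5 groups of nearly equal size ordered by genomic span, the median difference on overexpression went from 0.35 for the shortest genes to -0.49 for the longest, while in sorted cells it stayed between -0.03 and 0.12. On overexpression Ppib lay in the shortest group, Plod3, Crtap and Serpinh1 in the next, Plod1 in the middle one, P4ha1 and P4ha2 in the one after it and Plod2 in the longest. Above the median of their own groups, P4ha2 stood 1.54 higher on overexpression, P4ha1 1.39, Serpinh1 1.30, Plod2 1.23, Crtap 0.98, Ppib 0.69 and Plod3 0.26, and Plod1 stood at -0.05. The part of gene length in these values was not tested further.

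Other genes of collagen maturation also rose in sorted cells, but with exceptions. Of 28 further genes listed that modify, carry or process procollagen, 21 were tested, with a median of 1.23. Of these, 12 (57.1%) were called up and 3 down, against 13.8% and 8.32% of all genes. Of the 21, 3 had a column under 1 FPKM. Sparc, a collagen-binding glycoprotein of basement membranes, had the largest difference, from 33.5 to 981 FPKM (4.83). Colgalt1, which adds galactose to hydroxylysine, rose from 9.14 to 54.3 FPKM, and the coat protein gene Sec24d and the cargo receptor gene Mia3 (TANGO1), both needed to export procollagen from the endoplasmic reticulum, rose by 2.498 and 1.23. A further 3 genes went the other way. Pcolce, which enhances the removal of the C-propeptide of fibrillar procollagens, fell from 141 to 19.8 FPKM (-2.77), its relative Pcolce2 from 2.77 to 0.68 FPKM (-1.17), and Fkbp10, the isomerase FKBP65 that works with PLOD2, from 3.72 to 1.24 FPKM (-1.08). The prolyl 3-hydroxylase family genes other than P3h1 were higher in KLF3-GFP-positive cells but were not called up, and P3h2 and P3h3 lay under the minimum. P3h2 was at 0.1 and 1.20 FPKM, P3h3 at 0.58 and 1.25 FPKM and P3h4 at 4.63 and 8.82 FPKM. Fkbp14 was at 1.49 and 0.56 FPKM. Lox was looked for but had no listed value under that symbol, and of its relatives Loxl2 rose from 0.48 to 5.56 FPKM.

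On overexpression 25 genes of the same list were tested, with a median of -0.0028, against -0.18 for all genes. Of these, 4 (16%) were called up and 3 down, against 6.6% and 10.1% of all genes. Sparc rose from 138 to 484 FPKM (1.80), Fkbp11 from 27.3 to 60.6 FPKM, Pcolce from 64.9 to 164 FPKM (1.32) and Bmp1, the C-proteinase, from 0.73 to 2.92 FPKM. Mbtps2, which activates the procollagen regulator CREB3L1 by cleavage, fell by 1.38 on the log2 scale, Sec23a by 1.16 and Pcolce2 by 1.13. Pcolce thus differed in opposite directions in the experiments. Fkbp10 was at 7.93 and 14.95 FPKM (0.84), Colgalt1 at 50.3 and 31.9 FPKM (-0.64) and Mia3 at 22.3 and 16.0 FPKM (-0.45).

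**Figure D4:**
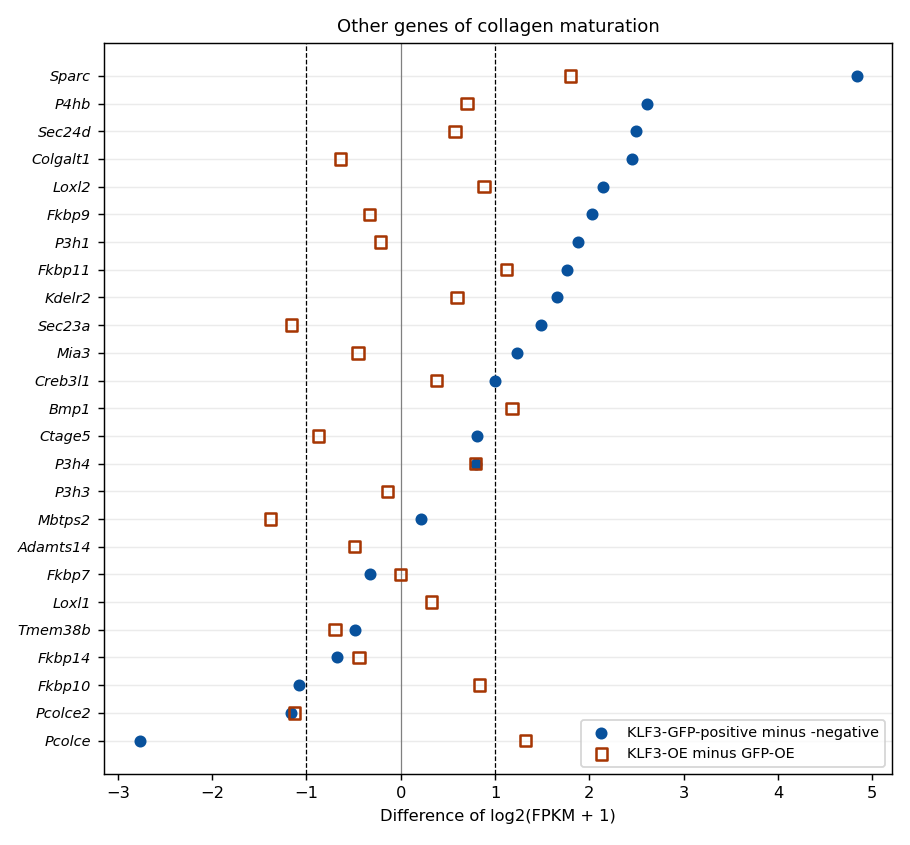
Difference of log2(FPKM + 1) in sorted cells (filled circles) and on overexpression (open squares), KLF3 column minus control, for the other genes of collagen maturation that passed the minimum in that experiment. Dashed lines mark the 2-fold limits. Sparc lies furthest right in both, at 4.83 and 1.80, and Pcolce lies at -2.77 in one and 1.32 in the other.

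Collagen chains were the only substrates of these enzymes that were counted. Of 13 collagen chain genes in the table of sorted cells, 7 were tested. Of these, 5 were called up and 1 down, against 13.8% and 8.32% of all genes. Of the 7, Col4a2, Col27a1, Col11a1 and Col13a1 were under 1 FPKM in KLF3-GFP-negative cells and passed the minimum through the KLF3-GFP-positive column, so their count is set in part by the minimum. The basement membrane chains Col4a1 and Col4a2 stood at 1.47 and 0.48 FPKM in KLF3-GFP-negative cells and rose to 138 FPKM (5.81) and 59.4 FPKM (5.35), whereas Col18a1 fell from 4.19 to 1.42 FPKM. Next came Col27a1, from 0.21 to 4.81 FPKM. The fibrillar chain Col1a2 was at 0.1 and 0.25 FPKM, and Col1a1 and Col3a1 had no listed value in these cells. On overexpression 25 chain genes were listed and 12 tested, of which 4 were called up and none down, against 6.6% and 10.1% of all genes. The 4 were Col4a1 (12.7 to 75.5 FPKM, 2.48), Col4a2 (8.32 to 49.5 FPKM, 2.44), Col27a1 (0.27 to 2.27 FPKM) and Col16a1 (0.36 to 1.86 FPKM). Of the 12, 3 had a column under 1 FPKM. Col1a1 was at 0.23 and 0.29 FPKM and Col1a2 at 0.18 and 0.40 FPKM. Type IV chains thus rose more than the enzymes in both experiments, and the summed FPKM of the 8 genes over that of Col4a1 and Col4a2 was 208 for KLF3-GFP-negative cells, 9.15 for KLF3-GFP-positive cells, 23.1 in GFP-OE and 7.82 in KLF3-OE cells. Ppib is the largest term of this sum in every column.

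Genes for general folding in the endoplasmic reticulum moved with the 8 genes in sorted cells. Of 21 tested, 16 were called up and none down, against 13.8% and 8.32% of all genes. The median was 1.37, and the largest differences were those of the chaperone genes Dnajc3 (2.74) and Calr (2.33) and of the isomerase gene Pdia5 (2.47). On overexpression 2 of 22 were called up, Erp29 (1.26) and Dnajb11 (1.06), and 2 down, Canx (-1.23) and the oxidase gene Ero1l (-1.15), with a median of 0.12. These counts, 9.09% up, lay near the shares of all genes, 6.6% up and 10.1% down. Serpinh1 and P4ha2 lay above every one of these general folding genes in both experiments, apart from Erp29 on overexpression, which lay between them.

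Other cyclophilins and other oxygen-dependent hydroxylases were counted next, as relatives of Ppib and of the hydroxylases. The 14 cyclophilin genes other than Ppib tested in sorted cells had a median of -0.12. Of them, 1 was called up and none down, against 13.8% and 8.32% of all genes. The one was Ppic, which encodes the secretory pathway cyclophilin C and went from 25.98 to 72.8 FPKM, while Ppid and Ppie lay at -0.85 and -0.64. On overexpression 2 of 15 were called down, Ranbp2 (-1.70) and Ppil4 (-1.08), and none up, against 10.1% and 6.6% of all genes. Nktr was at -0.88. Of 6 further hydroxylases, which sense oxygen or modify aspartate, Asph (1.42) and Egln1 (1.24) were called up in sorted cells, which is 33.3% against 13.8% of all genes, none was called down, and Egln3 was at -0.73. On overexpression Egln3 was called down (-1.03), and Hif1an (-0.55) and Egln2 (0.51) were not called.

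P4ha1, P4ha2 and Plod2 are known targets of hypoxia-inducible factors, so other genes of that response were counted. In sorted cells 17 were tested, with a median of -0.03, and 1 was called up and 1 down, against 13.8% and 8.32% of all genes. The one called up was Vegfa (0.98 to 4.36 FPKM), which was under 1 FPKM in KLF3-GFP-negative cells. The one called down was Pdk1 (11.4 to 3.89 FPKM). The largest difference among the others was that of Higd1a (0.77). On overexpression 19 were tested, and the median was -0.18, that of all genes. Of the 19, 1 was called up (Hk2, 45.3 to 147 FPKM) and 2 down (Bnip3, -1.62, and Vegfa, -1.08), against 6.6% and 10.1% of all genes. Of genes that supply ascorbate and iron, 1 of 5 tested in sorted cells was called up (Slc11a2, 1.03) and 1 down (Tfrc, the transferrin receptor, from 6.5 to 1.39 FPKM). The ferritin light chain Ftl1 lay at 0.67. On overexpression 1 of 6 was called up, the ferritin heavy chain Fth1 (1.45), and Ftl1 (0.83) and the ascorbate transporter gene Slc23a2 (-0.85) were not called.

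Most markers of primitive and parietal endoderm rose in both experiments, whereas the 8 genes all rose in sorted cells but only 3 of them on overexpression. Of 21 markers tested in each experiment, 20 were called up, against 13.8% of all genes in sorted cells and 6.6% on overexpression. Their median was 3.98 in sorted cells and 1.88 on overexpression. Of these 21, 11 in sorted cells and 5 on overexpression had a column under 1 FPKM, so that a gene high in the other column alone could pass the minimum, and the count and median are in part set by it. Nid1 was the remaining one, at 0.93 in sorted cells and called down on overexpression (-1.47). This list shares Col4a1, Col4a2 and Sparc with the lists above. It also holds Amn, Cubn and Lrp2, of the endocytic receptor complex of visceral endoderm, so it does not single out parietal endoderm. Over the 24 markers listed, the summed FPKM was 66.7 for KLF3-GFP-negative cells, 3980.2 for KLF3-GFP-positive cells, 284 in GFP-OE and 1184 in KLF3-OE cells. The largest differences were those of Srgn (9.14), Dab2 (7.04) and Col4a1 in sorted cells and of Srgn (3.66), Pth1r (2.68) and Amn (2.55) on overexpression, and of the defining transcription factors Gata4 was at 1.07, 23.4, 4.16 and 18.7 FPKM and Sox17 at 2.76, 53.2, 1.41 and 7.70 FPKM in the same order of columns. The share of such cells in a column cannot be told apart from their level per cell, and their part in the values of the 8 genes was not tested.

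Most pluripotency markers were lower in the KLF3 columns. Of 15 naive and general pluripotency markers tested in sorted cells, 10 were called down and 1 up, with a median of -1.40. Over all genes, 8.32% were called down and 13.8% up. Tdgf1 (-2.22), Fgf4 and Sox2 (both -1.92) were lowest. On overexpression 5 of 16 were called down and 1 up, with a median of -0.72, against 10.1% and 6.6% of all genes. The largest differences there were those of Prdm14 (-1.61), Gbx2 (1.45) and Klf5 (-1.37). Of the 16, 4 were higher in KLF3-OE cells, among them Pou5f1 (883 and 990 FPKM). Of the fibroblast and feeder markers, a known site of Serpinh1 and P4ha1 expression, 7 were listed in sorted cells with a summed 8.40 and 5.70 FPKM. Most of it was Fn1 (6.83 and 3.32 FPKM), the only one tested there, which was not called. On overexpression 13 were listed with 177 and 88.0 FPKM, again mostly Fn1 (163 and 62.1 FPKM). Of 6 tested on overexpression, Fn1 was called down and none up. The other 5 were higher in KLF3-OE cells, and the median of the 6 was 0.28. The defining fibroblast gene Col1a2 was at or under 0.40 FPKM in all 4 columns, Acta2 was at 7.02 and 14.9 FPKM and S100a4 at 1.06 and 2.98 FPKM on overexpression. Of the trophoblast markers, 3 of 6 tested were called up in sorted cells and 1 down, and 4 of 9 were called up on overexpression, led in both by Krt18, Krt8 and Plac1. Of these, 4 of the 6 and 3 of the 9 had a column under 1 FPKM, Plac1 in both experiments, so these counts too are set in part by the minimum. The defining factor Cdx2 did not pass the minimum and was at 0.1 and 0.57 FPKM in sorted cells and at 0.1 and 0.60 FPKM on overexpression, higher in both KLF3 columns. Other markers of this list went the other way in sorted cells. Ascl2, the one called down, went from 2.73 to 0.81 FPKM and Tfap2c from 2.40 to 0.77 FPKM, while 4 of the 6 tested were higher. Under the minimum, Esx1 went from 1.15 to 0.24 FPKM and Gata3 from 0.36 to 0.12 FPKM. On overexpression Tfap2c was at 26.2 and 13.1 FPKM, while 8 of the 9 tested were higher in KLF3-OE cells. The part of these markers in the values of the 8 genes was not tested.

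The genes nearest to P4ha2 and Serpinh1 in the plane of both differences were each other and a few genes of other functions. P4ha2 lay at a distance of 0.21 from Serpinh1, 0.25 from Lgmn and 0.27 from Tmem144, and Serpinh1 at 0.12 from Cxcl16 and from Lgmn and 0.17 from Tmem144. Lgmn, the lysosomal protease legumain, stood at 11.7 and 259.5 FPKM in sorted cells and at 49.4 and 119 FPKM on overexpression. These distances rest on 4 columns, and many genes lie close together there.

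The count on overexpression depended on how the columns were scaled. With median-ratio scaling, P4ha1 and Crtap joined Serpinh1, P4ha2 and Ppib above the limit, which made 5 of 8. With the span trend removed, the count was also 5, with P4ha1, Crtap and Plod2 in and Ppib out. Under quantile normalization it stayed at 3, with P4ha1 in and Ppib out, and with the columns rescaled to the same sum without ribosomal protein genes Serpinh1 alone remained, 1 of 8. In sorted cells all 8 remained called up except Plod1, which was at 0.93 under quantile normalization and under that rescaling.

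**Figure D5:**
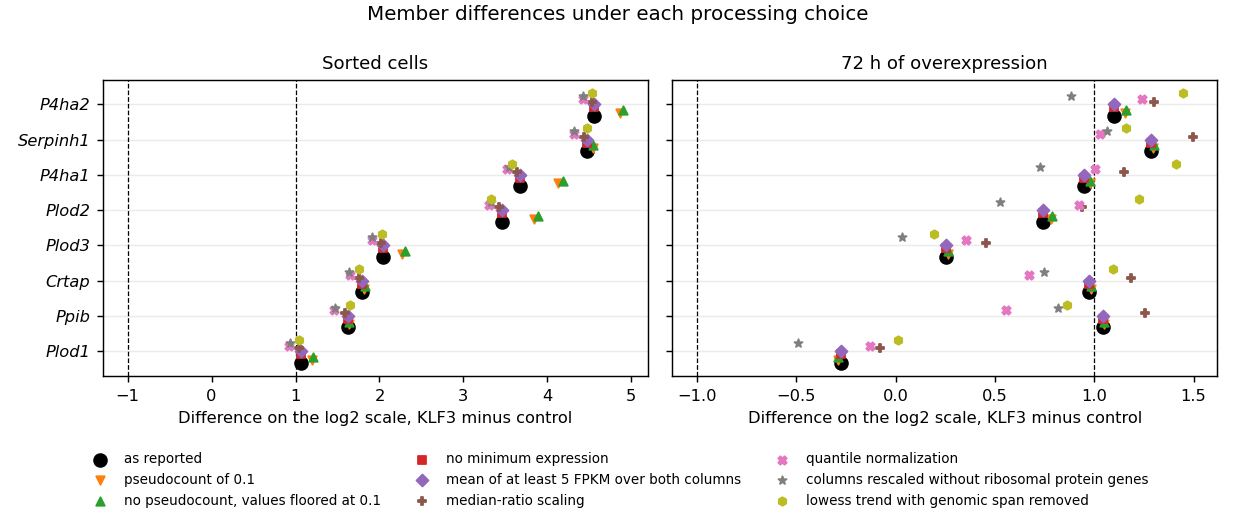
Difference on the log2 scale of the 8 genes as reported (large black points) and under each of the 8 other processing choices (small symbols), in sorted cells (left) and on overexpression (right). Dashed lines mark the 2-fold limits. In sorted cells only Plod1 crosses the limit, while on overexpression P4ha2, Ppib, Crtap, P4ha1 and Plod2 lie on either side of it depending on the choice and Serpinh1 stays between 1.03 and 1.49.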

How the data were processed

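RNA-seq values of 8 samples in 4 conditions were analysed. The authors aligned reads to mm10 with STAR (version 2.6.0 per the labels, with an earlier version named in the study's methods) guided by GENCODE, and computed FPKM with Cufflinks (version 2.2.1). The deposited FPKM are means of 2 replicates per condition for protein-coding genes, rounded to 2 decimals, with 0.1 as the lowest value. Replicate values and depth are not given in the sources used here, so limma, the replicate block and leaving out replicates, which had been planned for replicate columns, were not run. The overexpression table came from a strand-marking kit and the other did not.

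Where a gene had more than 1 locus, the one with the highest mean was kept. Differences of log2(FPKM + 1), with a pseudocount of 1, were computed within each table where the 2 columns averaged 1 FPKM or more, with a limit of 2-fold, the study's limit without its condition on P. Table starts count from 0 and were raised by 1. After this, 79.9% equalled those of GENCODE M21, against 1.31% as written. Promoters came from RefSeq (GRCm38.p6). The 8 genes, the 11 other lists and the motifs were chosen with earlier results of these data known. Named are the 8 genes, the 3 largest absolute differences of each list and experiment, genes by role, and for the 2 genes with the largest differences in sorted cells the 3 nearest genes. Dnajb11, Fkbp11, Sec23a, Sec24d, Loxl2, Bmp1, Col16a1, Col18a1, Pcolce2, Col11a1, Col13a1, Cdx2, Ascl2, Tfap2c, Esx1, Gata3, Gata4, Sox17, Nid1, Cubn, Lrp2, Pou5f1, Ddx3y, Uty, Eif2s3y, Znhit1 and Snx22 were added after their values were seen. Python (3.11.15), pandas (2.3.3) and statsmodels (0.14.6) were used, and the scripts were tested on simulated columns.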

Additional observations from a re-analysis of the deposited data

How the results depend on the processing

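The alternatives were a lower pseudocount (0.1), plain log2 FPKM floored at 0.1, all listed genes, a higher minimum (5 FPKM), median-ratio scaling, quantile normalization, rescaling to equal sums without ribosomal protein genes, and removal of a lowess trend (fraction 0.3) with genomic span. A count was taken as moved beyond 1.5-fold. The 8 genes called up in sorted cells became 7 under 2 alternatives and stayed at 8 under the other 6, and their median stayed between 2.61 and 3.10. On overexpression the median stayed between 0.74 and 1.17, and the number called up was 5 with median-ratio scaling, 5 with the trend removed and 1 with the rescaling, against 3. None of the 8 was called down under any alternative. Of the other collagen maturation genes, 1 instead of 3 was called down in sorted cells at a mean of 5 FPKM, where fewer genes were tested. On overexpression 1, 1 and 0 instead of 3 were called down with median-ratio scaling, quantile normalization and the trend removed, and 7 instead of 4 were called up with quantile normalization. The cause was not tested.

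Over all genes, 1267 were called up and 766 down in sorted cells, and 840 and 417 at a mean of 5 FPKM. On overexpression 738 were called up and 1133 down, so that 39.4% of calls were up, which became 62.5% (1164 and 699) with median-ratio scaling and 18.7% (428 and 1858) with the rescaling. Genes called down numbered 1819 and 1912 with the lower pseudocount and with the floor, 734 at a mean of 5 FPKM, 711 with quantile normalization and 588 with the trend removed. No paired analysis was possible because each condition has 1 column of means without replicate numbers. The unknown depth and spread limit every difference, and most for low values.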
